A study of Rattus norvegicus with 24 samples.

Results

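Apelin is a secreted peptide made from the precursor that the gene Apln encodes. The gene was followed through every probe set whose only gene symbol on the array platform is Apln, which gave 2 of the 15866 probe sets left once controls were removed, or 1 of 10411 genes with a symbol of their own. The gene was chosen by its SNI minus sham differences, which were below 0 at both ages, so the injury differences of Apln below are descriptions and carry no test. The same-numbered pairs of arrays below are those same differences array by array, and they describe their spread. What the choice did not use was the gene's level with age and the other genes of the apelin system.

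RNA came from the dorsal horn of the spinal cord on the operated side in Sprague-Dawley rats. Spared nerve injury (SNI) means that 2 of the branches of the sciatic nerve, the tibial and the common peroneal, were tied off and cut while the sural branch was spared. In sham animals the nerve was uncovered and left untied, and all animals were operated under isoflurane. The groups were adult sham, adult SNI, neonate sham and neonate SNI, with 6 arrays each, 24 in all, described as biologically independent. Adults were 8 to 12 weeks old and neonates were labelled postnatal day 10, without a statement on whether that was the day of surgery or of tissue collection. The study's title places the tissue 7 days after injury. Sample titles give the 7 days for SNI arrays only and state no time after surgery for sham arrays. The labels leave it unsaid whether an array held 1 animal or a pool.

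Apelin is cut by proprotein convertases from a longer precursor into several active peptides, which act on a single G protein-coupled receptor, the apelin receptor Aplnr (also called APJ). The system is best known from blood vessels, where sprouting endothelial cells make the peptide, and from the heart, fluid balance and blood pressure, where it opposes angiotensin II. In the nervous system, neurons and glia have been described as sources, and the gene responds to low oxygen in several tissues. In the RefSeq annotation of the rat genome (GRCr8) the gene lies on the minus strand of chromosome X, chrX:132058739-132091518, a span of 32780 bases with 2 listed transcripts.

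Values were deposited as log2 expression after GCRMA, a method that corrects background by probe sequence, so a difference of 1 is a doubling. Array medians ran from 5.57 to 5.67 log2 and the lowest correlation between any pair of arrays was 0.984. A probe set was tested if it exceeded 3.84 log2, the 40th percentile of all values, on 6 or more arrays, and 9638 probe sets of 7006 genes did so. Markers of the labelled tissue were bright: Snap25, a synaptic protein of neurons, had group means of 13.29 to 13.52 log2, the astrocyte filament gene Gfap 13.87 to 14.57 log2 and the myelin gene Mbp 14.99 to 15.01 log2. The mean over 4 genes listed as motor neuron markers varied between arrays of a group, from 4.84 to 8.91 log2 in adult sham, and the source of this spread was not tested. With 6 arrays a group, precision is set by that number.

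Both Apln probe sets lay above the filter level on all 24 arrays. They are called the brighter (1389651_at) and the dimmer (1368258_at) by their signal, which cannot be set against each other as amounts of RNA. Over the 24 arrays their values correlated at r = 0.79 (Spearman 0.83), and with each group's mean taken off at r = 0.61 (Spearman 0.60). Both sets of values come from the same arrays, RNA and normalization, so this describes how closely the probe sets track each other. The brighter probe set was the more even of the pair, with an SD within groups of 0.18 log2 against a median of 0.22 log2 over all tested probe sets, while the dimmer had 0.36 log2.

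On the brighter probe set, the adult sham arrays 1 to 6 read 9.21, 9.31, 9.57, 9.73, 9.45 and 9.31 log2. The adult SNI arrays read 8.95, 8.97, 9.13, 9.17, 8.86 and 8.81 log2. Every injured adult array was below every sham adult array, so the groups did not overlap. Over all tested probe sets, 0.083% separated in this direction in adults, a share from which nothing is read here because this contrast chose the gene. Group means were 9.43 ± 0.19 log2 (SD, n = 6) in sham and 8.98 ± 0.15 log2 (SD, n = 6) after SNI. The difference was -0.45 log2 (SE 0.10, 95% interval -0.66 to -0.23), which is 26.7% less signal after injury. In whole tissue, fewer cells of a type that makes apelin and less Apln RNA in each cell cannot be told apart.

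In neonates the brighter probe set read 10.08, 10.11, 10.10, 9.76, 9.74 and 9.97 log2 on sham arrays 1 to 6. After SNI it read 9.70, 9.85, 9.50, 9.66, 9.44 and 9.29 log2. Of the injured neonate arrays, 5 of 6 were below every sham array, and SNI array 2, at 9.85 log2, reached into the sham range. Full separation in this direction was seen for 0.0311% of tested probe sets in neonates. Means were 9.96 ± 0.17 log2 (SD, n = 6) in sham and 9.57 ± 0.20 log2 (SD, n = 6) after SNI, a difference of -0.38 log2 (SE 0.10, 95% interval -0.60 to -0.17) or 23.4% less signal.

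The dimmer probe set gave the same direction with more scatter. In adults it read 7.15, 7.16, 7.25, 7.71, 7.21 and 7.31 log2 in sham and 7.16, 6.84, 6.48, 7.16, 6.61 and 6.11 log2 after SNI. The injured adults overlapped the sham range here, with 4 of 6 SNI arrays below every sham array. The sham and SNI means of 7.30 ± 0.21 and 6.73 ± 0.41 log2 (SD, n = 6 each) differed by -0.57 log2 (SE 0.19, 95% interval -0.97 to -0.17).

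Neonate sham arrays 1 to 6 read 7.61, 7.91, 7.52, 7.76, 7.30 and 7.53 log2 on the dimmer probe set, and neonate SNI arrays 7.77, 7.60, 6.55, 7.51, 6.81 and 6.87 log2. The injured neonates were split, with 3 of 6 below every sham array and the other three inside the sham range. Means of 7.60 ± 0.21 in sham and 7.19 ± 0.50 log2 after SNI (SD, n = 6 each) differed by -0.42 log2 (SE 0.19, 95% interval -0.82 to -0.02).

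**Figure D1:**
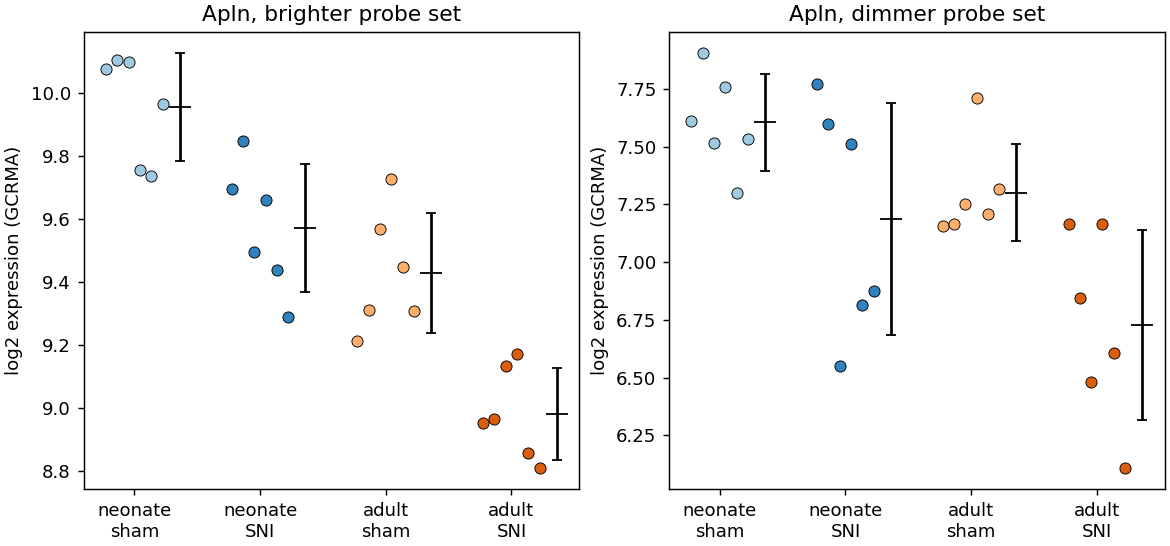
Log2 expression (GCRMA) of the brighter (left) and dimmer (right) Apln probe set in each of the 24 arrays, by group on the horizontal axis; within a group, points run from replicate 1 to 6, and the bar shows the mean ± SD (n = 6). On the brighter probe set the adult SNI arrays lie at 8.81 to 9.17 log2 and all adult sham arrays lie above them; axes do not start at 0.

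The size of the injury difference was close at the 2 ages. On the brighter probe set the adult difference minus the neonate difference was -0.06 log2 (SE 0.15, 95% interval -0.37 to 0.24), and on the dimmer it was -0.15 log2 (SE 0.27, 95% interval -0.72 to 0.41). Both intervals span 0 and are wide beside the injury differences themselves. Of all tested probe sets 0.228% passed for a difference between the ages' injury effects.

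The labels number the arrays of each group from 1 to 6, and same-numbered sham and SNI arrays of an age were taken as pairs. The SEs, intervals and limma p-values of the main fit leave this pairing out, and a replicate block was run as an alternative. A block fit takes spread between pairs out of the error, which suits a difference within pairs. Adult and neonate arrays lie in different pairs, so for a difference with age its p-values can be too small. Calls with age under a block are given as values and not read as results. On the brighter probe set the SNI minus sham differences of the adult pairs 1 to 6 were -0.26, -0.35, -0.44, -0.56, -0.59 and -0.50 log2. Those of the neonate pairs were -0.38, -0.26, -0.60, -0.09, -0.30 and -0.68 log2. The injured array was the lower one in 12 of 12 pairs, a count that the choice of the gene largely fixes, and the smallest difference was that of neonate pair 4. The neonate pairs were spread more widely (SD 0.22 log2, n = 6) than the adult pairs (SD 0.13 log2, n = 6), a contrast of spreads that was not tested.

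On the dimmer probe set the injured array was lower in 10 of 12 pairs. The adult pairs differed by 0.01, -0.32, -0.77, -0.55, -0.60 and -1.21 log2, and the neonate pairs by 0.16, -0.31, -0.97, -0.25, -0.49 and -0.66 log2. Pair 1 was the one in which injury was not lower at either age. At both ages the SNI arrays numbered 3, 5 and 6 read lower than those numbered 1, 2 and 4, a pattern noticed after the values were seen.

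**Figure D2:**
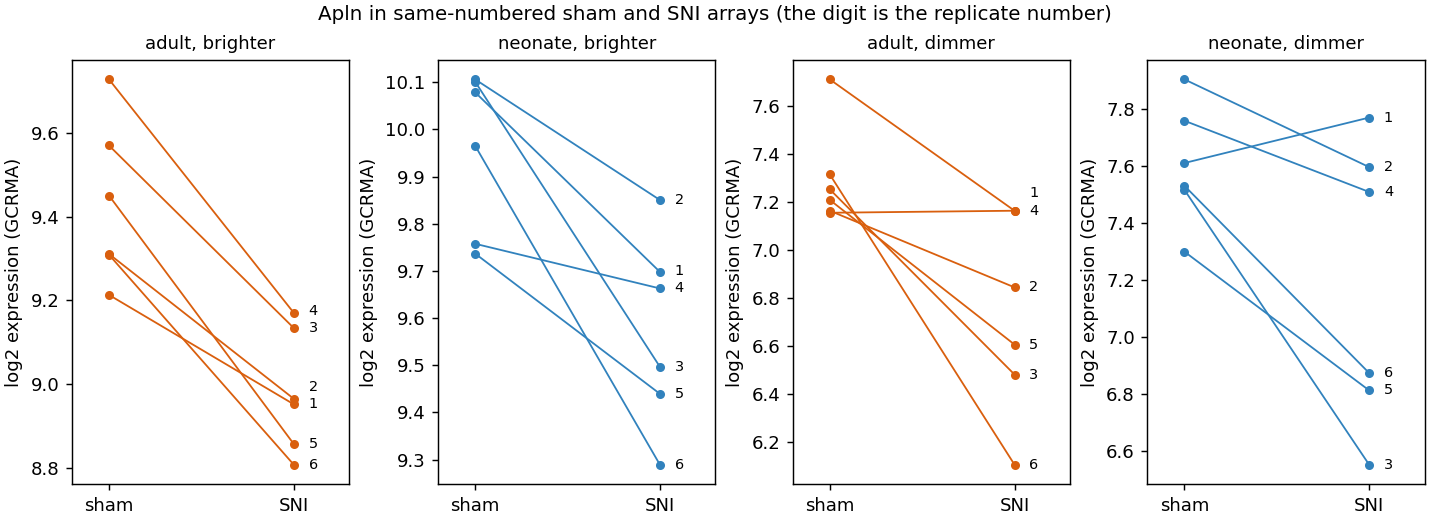
Log2 expression (GCRMA) of Apln in same-numbered sham and SNI arrays, joined by lines, for adults and neonates on the brighter and the dimmer probe set; digits are replicate numbers and each panel has its own axis. All 12 lines fall on the brighter probe set, and pair 1 is level or rises on the dimmer one at both ages.

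Age was tested, since the choice of the gene did not rest on it, although the tests use the same arrays as the injury differences. Apln on the brighter probe set was lower in adults than in neonates in both conditions. In sham animals the adult minus neonate difference was -0.53 log2 (SE 0.10, 95% interval -0.74 to -0.31, limma adjusted p = 8.9e-04), or 30.6% less signal. All 6 adult sham arrays were below all 6 neonate sham arrays, a separation that 4.06% of tested probe sets showed in this direction, and 16.3% of probe sets passed the test for age in sham. After SNI the difference was -0.59 log2 (SE 0.10, 95% interval -0.81 to -0.37, limma adjusted p = 2.1e-04), again with all 6 adult arrays below all 6 neonate ones. For age after SNI, 4.2% of probe sets separated downwards and 20.9% passed the test. Both differences had p = 0.0022 in a two-sided exact permutation test over 12 arrays, the smallest that 6 against 6 can give.

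The dimmer probe set lay in the same direction with age and did not pass after adjustment. Its adult minus neonate difference was -0.30 log2 in sham (SE 0.19, 95% interval -0.71 to 0.10, limma adjusted p = 0.321) and -0.46 log2 after SNI (SE 0.19, 95% interval -0.86 to -0.06, limma adjusted p = 0.0983). The two-sided exact permutation test gave p = 0.0411 in sham and p = 0.113 after SNI, not adjusted for the 6 such tests made on Apln. The difference after SNI passed with array weights (limma adjusted p = 0.0135) and without neonate SNI array 3 (0.0275). With a replicate block its limma adjusted p was 0.0204, or 0.0248 with a block per age. Those fits leave spread between pairs out of the error of an age difference, so no call is read from them. The difference in sham did not pass under any alternative run. The intervals of the dimmer probe set contain the values of the brighter one.

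The groups can be put in order of level within a probe set. On the brighter one the order from high to low was neonate sham, neonate SNI, adult sham and adult SNI, with steps of 0.38, 0.14 and 0.45 log2. The middle step, injured neonates against uninjured adults, did not pass (95% interval -0.07 to 0.36, limma adjusted p = 0.395, two-sided exact permutation p = 0.24). It sets an SNI group against a sham group, and the choice of the gene rested on such differences. Its p-values are thus not free of that choice, and the same holds for this contrast on the dimmer probe set. On the dimmer one the middle groups changed places, neonate sham being followed by adult sham, neonate SNI and adult SNI. The gaps were 0.30, 0.11 and 0.46 log2, and the limma adjusted p-values were 0.321, 0.752 and 0.0983, so no step passed in this fit. The last step had an interval below 0, and its pass with a replicate block is not read as a result.

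**Figure D3:**
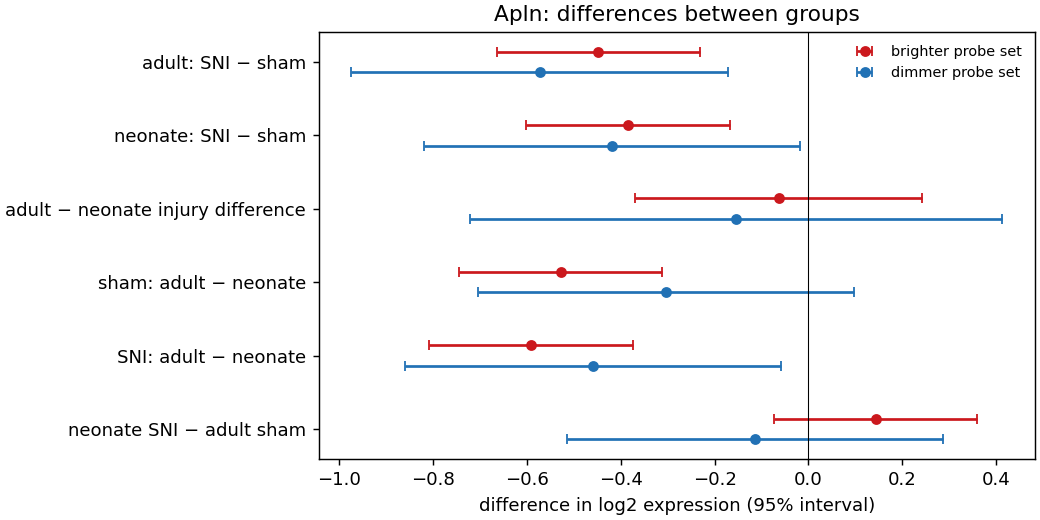
Differences in log2 expression of Apln between groups with 95% intervals from the model (horizontal axis), for the brighter (red) and dimmer (blue) probe set. The intervals of the injury rows are descriptions, as these differences chose the gene. The row of neonate SNI minus adult sham is not free of that choice. Of the age differences, those of the brighter probe set and that of the dimmer after SNI have intervals below 0, and that of the dimmer in sham spans 0.

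Most of what passed the test after injury was higher. Of the tested probe sets, 188 (1.95%) were higher and 5 (0.0519%) lower in injured adults, and 30 (0.311%) were higher and 0 lower in injured neonates by limma with Benjamini-Hochberg adjustment. At an unadjusted p under 0.05, 266 were lower in adults and 74 in neonates. In adults 33 were lower with the replicate block (264 higher), 27 with a block per age and 15 with array weights. The median difference over all tested probe sets was -0.026 log2 in adults and -0.009 log2 in neonates. Only 4 tested probe sets were as low as the brighter Apln probe set or lower at both ages: both Apln probe sets, Tnnc2 and 1389754_at, which has no gene name here. Tnnc2, the troponin C of fast skeletal muscle, differed by -1.40 log2 in adults (limma adjusted p = 0.0087) and by -0.95 log2 in neonates (limma adjusted p = 0.634, or 0.00183 with a replicate block per age). The unnamed 1389754_at differed by -0.71 and -0.44 log2. These neighbours were named after their values had been seen, and the position of Apln among them is what the choice of the gene made it.

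**Figure D4:**
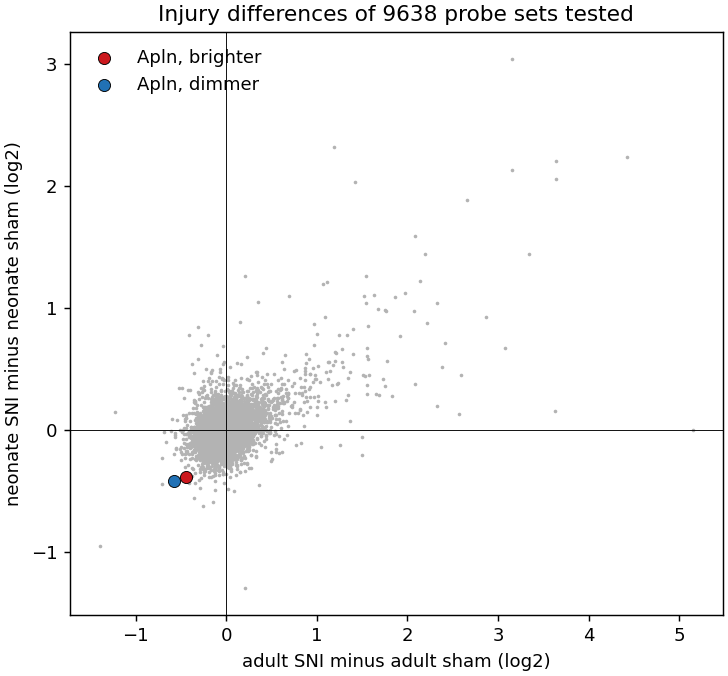
Injury differences in adults (horizontal, SNI minus sham, log2) and neonates (vertical, log2) of the 9638 tested probe sets; each grey point is a probe set, and the Apln probe sets are coloured. Both Apln points lie at the lower left edge of the cloud, at -0.45 and -0.38 log2 (brighter) and -0.57 and -0.42 log2 (dimmer).

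The apelin receptor could not be followed. Aplnr read 2.09 log2 on all 24 arrays, the lowest value in the data, so no level or difference can be given for it. Apela, the receptor's second peptide ligand, was not measured here. Of the peptidases known to cut apelin, Prcp was not measured here, Klkb1 stood at 2.09 log2 throughout, and Mme, the endopeptidase neprilysin, was above the filter level on 4 of 24 arrays, too few for a test.

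Too few proprotein convertases were tested for a count of 0 after injury to be read as a result. Which of them cut the apelin precursor here was not examined. Of 7 listed proprotein convertases 6 were measured and 4 passed the filter, and 0 of these 4 passed at either age, beside 2% of all probe sets in adults and 0.311% in neonates (limma; 0 of 4 also at an unadjusted p under 0.05). Furin, the convertase of the secretory pathway, differed by -0.03 log2 in adults (SE 0.11, limma adjusted p = 0.989) and by 0.05 log2 in neonates (SE 0.11, limma adjusted p = 1). Group means of Furin stayed between 7.83 and 7.98 log2. With age in sham, where 16.3% of all probe sets passed, 1 of the 4 rose: Pcsk6 was 0.60 log2 higher in adults (SE 0.12, limma adjusted p = 7.5e-04). The median of the 4 was 0.03 log2 there, against -0.032 log2 over all probe sets.

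The G proteins, kinases and arrestins that carry signals from the apelin receptor were measured for 27 of 34 listed genes, and 19 passed the filter. By limma 0 of the 19 passed after injury at either age, also at an unadjusted p under 0.05, beside 2% and 0.311% of all probe sets in adults and neonates. Beside those shares nothing is read from the count of 0. The median differences of the 19 genes were -0.03 log2 in adults and -0.02 log2 in neonates, with 11 of 19 below 0 each time. With age in sham 1 rose, beside 16.3% of all probe sets: the protein kinase Rock2, by 0.25 log2 (limma adjusted p = 0.0353). With a replicate block 3 rose and 1 fell, and with a block per age 3 rose and 3 fell. Those fits leave spread between pairs out of the error of an age difference, so these counts are not read as results. The Rock2 call was lost (adjusted p up to 0.0939) without any one of 6 arrays: adult sham 1, 2 or 5, or neonate sham 2, 5 or 6. It was also lost when the most variable probe set stood for each gene.

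For angiotensin, the peptide system that apelin opposes, 9 of 11 listed genes were measured and only Agt and Agtrap passed the filter. Agt, the angiotensin precursor, differed by -0.11 log2 in adults (SE 0.18), 0.12 log2 in neonates (SE 0.18) and 0.39 log2 with age in sham (SE 0.18), and neither gene passed (limma adjusted p of at least 0.11). With age in sham Agt had an adjusted p of 0.048 with a replicate block, or 0.0453 with a block per age. Those fits leave spread between pairs out of the error, so neither is read as a call. Agtrap passed with age in sham without adult sham array 6 or neonate sham array 4 (adjusted p = 0.0444 and 0.0337).

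Of 29 listed genes of the hypoxia response 28 were measured and 22 passed the filter. After injury 0 of the 22 passed at either age, beside 2% of all probe sets in adults and 0.311% in neonates, with medians of -0.00 log2 in adults and -0.02 log2 in neonates (limma; at an unadjusted p under 0.05, 1 rose and 1 fell in adults and 0 did in neonates). Beside those shares nothing is read from the 0 of 22. With a replicate block 1 passed in adults: Hif1a, the oxygen-sensitive transcription factor, at 0.41 log2 (adjusted p = 0.0194, or 0.0265 with a block per age, against 0.335 without). Vegfa, the vascular growth factor, differed by -0.03 log2 in adults and -0.06 log2 in neonates (SE 0.11 each), and the glucose transporter Slc2a1 by 0.06 and -0.08 log2 (SE 0.12 each). Adm, the precursor of the vascular peptide adrenomedullin, was under the filter level on every array. With age in sham 5 of the 22 rose and 4 fell, beside 16.3% of all probe sets passing, and their median difference was 0.11 log2. The 4 with the smallest p moved both ways: Ndrg1, a gene of stressed and myelinating cells, rose by 1.27 log2 and the prolyl hydroxylase Egln3 by 0.92 log2, while lactate dehydrogenase Ldha fell by 0.76 log2 and Ddit4, an inhibitor of mTOR signalling, fell by 0.59 log2 (limma adjusted p of at most 0.0068).

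Other secreted peptide precursors were compared with Apln. Of 32 listed, 28 were measured and 21 passed the filter. In injured adults, where 2% of all probe sets passed, 1 of the 21 rose and 0 fell (2 and 3 at an unadjusted p under 0.05): Vgf, the precursor of several neuropeptides, was 0.54 log2 higher (SE 0.12, limma adjusted p = 0.0131). In injured neonates 0 of 21 passed by limma, beside 0.311% of all probe sets, a count from which nothing is read. There 1 was higher at an unadjusted p under 0.05, and Vgf differed by -0.12 log2. With age in sham 1 rose and 1 fell, beside 16.3% of all probe sets. With a replicate block 2 rose and 3 fell, and with a block per age 2 rose and 5 fell. These counts are not read as results, since the block fits leave spread between pairs out of the error. Cck, the cholecystokinin precursor, rose by 0.35 log2 (limma adjusted p = 0.017) and Tac1, the substance P precursor, fell by 0.56 log2 (limma adjusted p = 0.0367). The Cck call was lost without neonate sham array 5 (adjusted p = 0.0529). The Tac1 call was lost without any one of 6 arrays (adult sham 4, 5 or 6, or neonate sham 1, 5 or 6; adjusted p up to 0.103) and under 3 other settings.

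**Figure D5:**
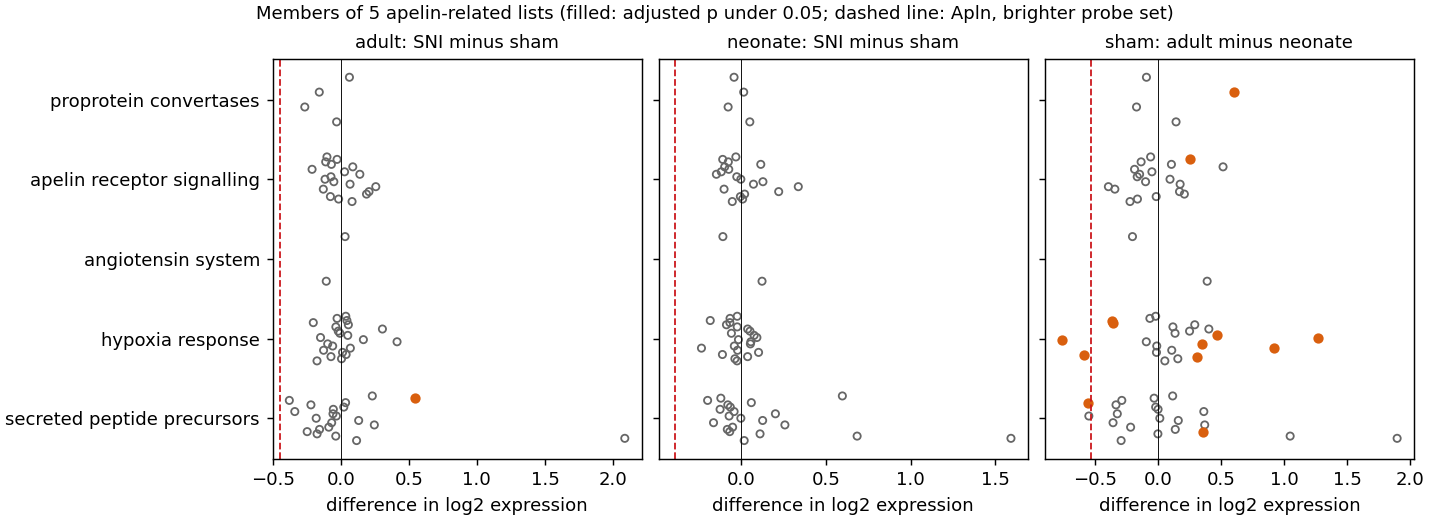
Differences in log2 expression of the tested members of 5 apelin-related gene lists (rows) in 3 comparisons (panels); filled points passed the test (limma adjusted p under 0.05), and the dashed red line marks the brighter Apln probe set. After injury the 1 filled point is Vgf in adults, and with age in sham the filled points lie on both sides of 0.

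Markers of vessel cells, the best known source of apelin, were read beside it. Of 27 listed endothelial genes 20 were measured and 17 passed the filter, and 0 of 17 passed after injury at either age, beside 2% of all probe sets in adults and 0.311% in neonates, with medians of -0.05 log2 in adults and -0.10 log2 in neonates (limma; 1 was lower at an unadjusted p under 0.05 at each age). Beside those shares nothing is read from the 0 of 17. The mean over these 17 genes ran from 6.31 to 6.52 log2 in neonate sham, 6.20 to 6.35 in neonate SNI, 6.40 to 6.65 in adult sham and 6.22 to 6.54 in adult SNI. Pecam1, an adhesion protein of endothelium, was under the filter level on every array. The tight junction gene Cldn5 differed by -0.16 log2 in adults and -0.04 log2 in neonates (SE 0.14 each). All 7 tested genes of pericytes and smooth muscle were below 0 in injured neonates and 3 of 7 in injured adults. By limma 0 passed, also at an unadjusted p under 0.05, and nothing is read from this count either.

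Genes listed as markers of endothelial tip cells, the cells at the front of a growing vessel, moved with age. Which cells of the tissue made their RNA was not tested. Of 20 listed, 16 were measured and 10 passed the filter, and 6 of these 10 fell from neonate to adult sham, where 16.3% of all probe sets passed, with a median of -0.58 log2 over the 10. The basement membrane genes Nid2, Nid1 and Col4a1 fell by 1.57, 0.96 and 1.18 log2 (limma adjusted p of at most 1.3e-04). The mean over the 10 genes ran from 7.92 to 8.41 log2 in neonate sham and from 7.46 to 7.89 log2 in adult sham, without overlap. After injury 1 of the 10 rose in adults, the receptor Nrp1, by 1.20 log2 (limma adjusted p = 0.0233), and 0 of 10 passed in neonates by limma, also at an unadjusted p under 0.05. Over all probe sets 1.95% were called higher in injured adults, and 0.311% passed in injured neonates, so nothing is read from the 0 of 10. The Nrp1 call was lost (adjusted p up to 0.0736) without any one of adult sham 1, 2 or 3 or adult SNI 2, 4, 5 or 6, and with no filter on low values. The part of tip cells in the age difference of Apln was not tested.

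Microglial markers moved with injury in the opposite direction to Apln. Of 17 listed microglial genes 15 were measured and 13 passed the filter. Of these, 13 of 13 rose in injured adults (median 1.73 log2) and 11 of 13 in injured neonates (median 1.04 log2), and 7 of 13 rose with age in sham (median 0.52 log2). Over all probe sets 1.95% were called higher in injured adults and 0.311% in injured neonates, and 16.3% were called in either direction with age in sham. Aif1, which encodes the microglial protein Iba1, rose by 2.14 log2 in adults (limma adjusted p = 2.2e-09) and by 1.22 log2 in neonates (limma adjusted p = 2.0e-04). The mean over the 13 genes ran from 6.20 to 6.93 log2 in neonate sham, 6.58 to 7.18 in adult sham, 7.31 to 7.87 in neonate SNI and 8.79 to 9.17 in adult SNI. The part of these cells in the lower Apln signal was not tested.

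Other cell types of the cord were followed by the same test. By limma 0 of 14 tested astrocyte genes, 13 neuronal genes, 11 oligodendrocyte genes and 5 oligodendrocyte precursor genes passed after injury at either age. Over all probe sets 2% passed in injured adults and 0.311% in injured neonates, so nothing is read from these counts of 0. The medians of these lists lay between -0.08 and 0.02 log2. At an unadjusted p under 0.05 there were 1 astrocyte and 1 neuronal gene in adults and 2 astrocyte genes in neonates. Gfap differed by 0.34 log2 in adults (limma adjusted p = 0.0648) and 0.31 log2 in neonates (limma adjusted p = 0.482), and in adults it passed with a replicate block (adjusted p = 0.0136, or 0.046 with a block per age), under 2 other settings and without adult SNI array 2. Of the 12 measured skeletal muscle genes 10 were under the filter level on every array, and Tnnc2 was 2.82 log2 higher in adult than neonate sham (limma adjusted p = 5.8e-07). With age in sham, beside 16.3% of all probe sets, the 3 tested red blood cell genes rose by a median of 2.20 log2. One of them, Slc4a1, the anion exchanger of red cells (adjusted p = 0.0253), was lost without any one of adult sham 1, 2 or 5 or neonate sham 1 or 5 (adjusted p up to 0.0725), and with only the 2 groups fitted. With the most variable probe set for each gene, 2 red blood cell genes passed. Of 7 tested fibroblast and meningeal genes 3 fell, with a median of -0.63 log2 over the 7, and 1 of 7 did with only the 2 groups fitted, with no filter on low values, and without any one of adult sham 3 or 4 or neonate sham 1, 5 or 6. The part of muscle, blood and meninges in the age difference of Apln was not tested.

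The genes whose values ran most like those of Apln over the 24 arrays were ranked by Pearson's r, as a description with no test. All 24 arrays share the ages and injuries of the design, so a gene that differs between the 4 groups can rank high. For the brighter probe set the highest were Atxn7l3b (r = 0.85), Tril (r = 0.85), Susd4 (r = 0.84), Slc25a33 (r = 0.83) and Dcx (r = 0.82). Dcx, the doublecortin of migrating neurons, had group means of 6.11 log2 in neonate sham, 5.76 in neonate SNI, 4.83 in adult sham and 4.70 in adult SNI, the order of groups seen for Apln. Susd4, a membrane protein that inhibits complement, had 9.82, 9.70, 9.57 and 9.27 log2 in the same order of groups.

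The lowest were the complement protein C3 (r = -0.89), the lysosomal membrane protein Laptm5 (r = -0.87) and the cholesterol-binding protein Npc2 (r = -0.87). C3 ran opposite to Apln, with 3.85 log2 in neonate sham, 6.89 in neonate SNI, 8.03 in adult sham and 11.18 in adult SNI. For the dimmer probe set the highest were Susd4 (r = 0.81), Rbfox3 (r = 0.79), Pim3 (r = 0.79), Rab11fip4 (r = 0.77) and Cacng2 (r = 0.77), and the lowest Tgfbr1 (r = -0.81), Rin2 (r = -0.80) and Akap13 (r = -0.80). Susd4 was thus among the 5 highest for both. Among the 8143 probe sets compared, the other Apln probe set ranked 21st for the brighter and 2nd for the dimmer.

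With each group's mean taken off, what remains is the variation between arrays of 1 group. The genes then most like the brighter probe set were Gjb6 (r = 0.78), a connexin of astrocytes, Hsd11b1 (r = 0.77), which activates glucocorticoids, Anapc1 (r = 0.76), Manea (r = 0.72) and Hint3 (r = 0.69). Those most like the dimmer were Ap4b1 (r = 0.79), Bcar1 (r = 0.78), Cacng2 (r = 0.77), Ccdc92 (r = 0.77) and Clasrp (r = 0.77). No gene stood in both lists, and the other Apln probe set fell to rank 37 for the brighter and 197 for the dimmer.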

How the data were processed

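Dorsal horn RNA was taken up in Trizol and read on Affymetrix arrays (Rat Expression 230A), per the labels' protocols. The deposited log2 values were made by the authors with GCRMA, per the submitters' processing notes, and were used unchanged; GCRMA sets dim probe sets to a common low value. They covered 15923 probe sets on 24 arrays. Removing 57 controls left 15866, of which 12783 had 1 gene symbol, 312 several and 2771 none in the platform annotation. With limma 3.58.1 under R 4.3.3 (and data.table at 1.17.8), each of 4 groups was given a mean per probe set, leaving 20 residual degrees of freedom, and variances were moderated (3.81 prior degrees of freedom). Probe sets above the 40th percentile on at least 6 arrays were tested, with two-sided p-values, Benjamini-Hochberg adjustment over all of them and a threshold of 0.05. The fit was tested on simulated data. Age contrasts of Apln also had exact permutation tests over arrays. The array's probe sequences and genome build were not used here.

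The probe set with the highest mean stood for its gene in lists. Genes named were Apln, a set of index genes, at most 4 called members of a list in a contrast (smallest p first), and the 5 most and 3 least Apln-like genes. The gene and all lists were chosen with earlier results of these data known. Pairing was checked by correlating the deviations from group means of a sham and an SNI array of equal number. The 6 adult pairs gave 0.10 to 0.56 and the 6 neonate pairs 0.24 to 0.61, so replicate numbers were taken as pairs within an age. No label states what a number marks, and a replicate block was an alternative. Other alternatives were the filter, the arrays fitted, variance moderation, array weights, scaling, the probe set per gene, Spearman correlation and leaving out each array. Figures were drawn with matplotlib 3.10.9 (Python 3.11.15, pandas 2.3.3).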

Additional observations from a re-analysis of the deposited data

Results flagged for a closer look

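On the dimmer Apln probe set, adult sham array 4 stood apart from its group at 7.71 log2, with the other adult sham arrays at 7.15 to 7.31 log2. Its gap to the nearest array was 0.712 of the range of the group, above Dixon's 95% critical value for 6 arrays. Among 12 such tests, on the highest or lowest array of a group, 1 passed the limit, and chance passes about 1 group in 20. The same array was also the highest adult sham array on the brighter probe set, at 9.73 log2.

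Among the 131 genes named by rule, the injury differences of the 2 ages differed for Cd53, a membrane protein of microglia and other leukocytes. Its rise was 2.07 log2 in adults and 0.97 log2 in neonates, a difference of 1.10 log2 (SE 0.20, limma adjusted p = 0.0065). For Apln that difference was -0.06 log2 on the brighter and -0.15 log2 on the dimmer probe set.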

How the results depend on the processing

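Both Apln probe sets kept their direction under every alternative run. For the injury differences the choice of the gene largely fixes this, so their ranges below describe spread only. The adult minus neonate injury difference of the brighter probe set ran from -0.12 to -0.004 log2 when each array was left out. On the brighter one, leaving out each array moved the adult injury difference between -0.49 and -0.39 log2, the neonate one between -0.44 and -0.33, age in sham between -0.59 and -0.48 (adjusted p 3.7e-04 to 0.00325) and age after SNI between -0.65 and -0.54 (adjusted p at most 8.5e-04). On the dimmer one the same ranges were -0.66 to -0.45, -0.54 to -0.29, -0.39 to -0.24 and -0.59 to -0.33 log2, and age after SNI passed without neonate SNI array 3 (-0.59 log2, adjusted p = 0.0275). Age after SNI on the dimmer probe set also passed with array weights (-0.66 log2, adjusted p = 0.0135). Its adjusted p was 0.0204 with the replicate block and 0.0248 with a replicate block per age (-0.46 log2 each). The block fits leave spread between pairs out of the error of an age difference, so their p-values for age can be too small. The brighter probe set passed for age in sham and after SNI under all of these. Probe sets called after adult injury numbered 297 with the replicate block, 291 with a block per age and 106 with a filter at the 60th percentile, against 193. Neonate injury gave 18 when only its own groups were fitted, against 30. Age in sham gave 2468 with the block and 2648 with a block per age, against 1573, and age after SNI 3103 with a block per age, against 2010. For age, the higher counts come from fits that leave spread between pairs out of the error, so they are not read as a gain. The cause of these shifts was not tested. Leaving out each array gave 158 to 184, 23 to 31, 1249 to 1608 and 1709 to 2138 calls. With Spearman's correlation, 3 of the 5 most Apln-like genes were shared with Pearson's for either probe set. Over the named genes, the gene lists and the Apln-like genes, 9442 values and counts stayed on their side of the threshold or within 1.5 times, 134 gene values lost it, 66 gained it, 125 counts moved further and 0 reversed. Aplnr and other probe sets at the low value carry no information on differences.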

Other observations

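Apln was set beside the mean level of 4 cell type lists after group means had been taken off, over 24 arrays. These 8 relations were chosen after the data had been seen, and the arrays share their RNA and normalization with the lists. The adjusted p-values cover these 8 only and not the choice of lists. Other cell type lists, that of endothelial tip cells among them, were not set beside Apln in this way. In the permutations, same-numbered sham and SNI arrays of an age were moved together, since their deviations correlate. With the endothelial list the brighter probe set had r = 0.55 (permutation p = 0.0072, adjusted 0.0287) and Spearman's rho = 0.49 (permutation p = 0.0301, adjusted 0.109). The dimmer probe set had r = 0.62 (permutation p = 0.0014, adjusted 0.0114) and rho = 0.63 (permutation p = 0.0022, adjusted 0.0176). Without the 2 arrays farthest from the median, r was 0.41 and 0.46. With a number moved as a whole over all 4 groups, in all orders, the p of r was 0.0069 and 0.0056 (exact permutation). The neuronal list gave r = 0.50 for the brighter probe set (permutation p = 0.0443, adjusted 0.118) and rho = 0.50 (permutation p = 0.0408, adjusted 0.109), and r = 0.22 for the dimmer (permutation p = 0.386). Microglia gave r = -0.23 and -0.02 (permutation p = 0.312 and 0.921) and astrocytes r = 0.02 and 0.16 (permutation p = 0.946 and 0.49).

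The dimmer probe set read the same value, 7.16 log2 to 5 decimals, on 3 arrays: adult sham 2, adult SNI 1 and adult SNI 4.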
